A study of Mus musculus with 4 samples.

Results

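The cyclic nucleotide phosphodiesterases described here are 9 genes, Pde1a, Pde1b, Pde1c, Pde4a, Pde4b, Pde4d, Pde7b, Pde8b and Pde10a. They were found by exact gene symbol among the rows of the value table that carry 1 symbol, and they are 9 of 19938 genes tested, on 11 of 21789 rows, because Pde4d has 3 rows. RNA samples of ICR mice, 2 per group, were hybridised to 4 Affymetrix Mouse Gene 1.0 ST arrays, which read a transcript through probes along its length. According to the methods, mice that were 1 month old at the start received daily intraperitoneal ketamine, an NMDA receptor blocker, at 30 mg/kg or normal saline for 3 months, and prefrontal cortex was dissected; the labels give female mice and the methods male mice. For every array the title names one treatment and the source field the other, so that the groups are called by their titles. Every difference below is the mean log2 value of the arrays titled ketamine minus that of the arrays titled saline, and by the source field its sign would turn. The labels do not tie an array to an animal, so that the p-values cover only how far these 4 samples spread.

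Phosphodiesterases end cyclic nucleotide signals by breaking cAMP and cGMP down to the inactive monophosphates. The Pde1 enzymes are switched on by calcium and calmodulin and act on both nucleotides, and Pde10a, an enzyme best known from the medium spiny neurons of the striatum, also takes both. The Pde4, Pde7 and Pde8 enzymes are specific for cAMP; those of the Pde4 subfamily are phosphorylated by protein kinase A and are the targets of rolipram. In the brain these genes have distinct regional patterns, with Pde1b and Pde10a strong in the striatum.

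Because cAMP can act on genes through the cAMP response element, the RefSeq promoter windows of the 9 genes (250 bases before to 50 after an annotated start, GRCm38.p6) were searched on both strands for the full element TGACGTCA, its shorter form TGACGT, which lies inside it, and the core TGACG, which lies inside both. All 9 genes had at least 1 window, 26 in all. The full element was in 0 of the 26 windows and in 1.79% of 32851 windows of all genes. The shorter form was in 2 windows (7.51% of all windows), 1 of 4 Pde4b starts and 1 of 3 Pde4a starts, and the core in 4 (20.8% of all), those 2 and 1 each of Pde1a and Pde8b. Shown are windows of the gene with the lowest difference (Pde1a), the highest (Pde1c) and the smallest (Pde4b), 5′ to 3′ on the strand of the gene, with the core in capitals, which here reads CGTCA because it lies on the other strand. The Pde1a window is chr2:80038853-80039152 on the minus strand, the Pde1c window chr6:56362343-56362642 on the minus strand and the Pde4b window chr4:102421305-102421604 on the plus strand.
Pde1a: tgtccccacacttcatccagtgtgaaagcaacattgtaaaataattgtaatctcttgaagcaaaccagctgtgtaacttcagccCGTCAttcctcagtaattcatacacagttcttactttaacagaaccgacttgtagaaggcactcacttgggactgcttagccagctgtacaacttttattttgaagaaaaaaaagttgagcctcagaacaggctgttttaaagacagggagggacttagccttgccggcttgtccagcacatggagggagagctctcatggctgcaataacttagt
Pde1c: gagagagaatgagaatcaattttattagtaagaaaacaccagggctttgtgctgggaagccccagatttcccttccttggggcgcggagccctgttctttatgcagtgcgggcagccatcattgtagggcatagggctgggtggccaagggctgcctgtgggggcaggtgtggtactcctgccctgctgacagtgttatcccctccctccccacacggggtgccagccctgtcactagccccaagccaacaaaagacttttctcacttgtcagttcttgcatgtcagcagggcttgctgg
Pde4b: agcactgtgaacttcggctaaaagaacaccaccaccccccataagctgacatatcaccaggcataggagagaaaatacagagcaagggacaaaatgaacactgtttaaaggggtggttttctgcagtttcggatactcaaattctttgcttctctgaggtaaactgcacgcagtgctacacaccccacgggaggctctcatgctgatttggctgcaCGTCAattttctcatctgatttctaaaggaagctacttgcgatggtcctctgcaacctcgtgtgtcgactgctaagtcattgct
For Pde1a and Pde4b the window shown was chosen because it held the core, which 1 of 4 windows did for each gene. In the Pde1a window shown the core began 166 bases before the start and in the Pde4b window 34 bases before it. None of the 3 Pde1c windows held it. A match of these letters is a description of the sequence and not a binding site.

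The arrays of a group were close to each other and the groups were far apart. Across all tested rows the arrays titled saline correlated at 0.995 and those titled ketamine at 0.996, against 0.959 to 0.969 between groups. Rows of olfactory receptor genes, which are hardly used in brain, served as a floor; the 95th percentile of the 1035 such rows was 4.20 to 4.56 across the arrays, and the leading row of all 9 genes lay above it on every array. The labelled tissue was checked on marker genes. On the arrays titled ketamine the cortical transcription factor genes Tbr1 (3.73 and 3.69) and Neurod6 (3.93 and 4.01) lay below that percentile, as did Ddn on array 1 (4.12), and 5 of 6 measured cortex markers were lower, their summed linear signal being 179 to 196 against 3179.5 to 3219. All 9 measured striatum markers were lower too (2279 to 2345 against 5759 to 5900.3). All 8 cerebellar granule cell markers (9803 to 10489 against 395 to 629) and all 5 measured Purkinje cell markers (7892 to 8373 against 1131 to 1476) were higher. On the arrays titled saline Gabra6 (3.28 on array 2) was the granule cell marker that lay below the percentile. Treatment and brain region therefore cannot be told apart for any phosphodiesterase, and in a bulk sample fewer cells of a type cannot be told apart from less RNA per cell.

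Of the 9 phosphodiesterase genes, 6 were lower on the arrays titled ketamine, 1 was higher and 2 did not pass limma at an adjusted p of 0.05. The 3 Pde1 genes went apart: Pde1a was lower by 17.7-fold and Pde1b by 4.26-fold, while Pde1c was higher by 4.25-fold. The size for Pde1a is uncertain, since titled ketamine array 1 read 4.86, little above its olfactory receptor percentile of 4.56. Pde8b, Pde10a and Pde7b were lower by 2.51-fold, 2.35-fold and 2.00-fold. The Pde4 genes stayed within 1.3-fold, although Pde4a and Pde4d passed it after quantile normalization (-0.50 and -0.48 on the log2 scale). Over all 21789 rows limma called 33.2%, with 9.71% lower and 23.4% higher. The median difference was -0.999 over the 9 genes and 0.13 over all rows, and quantile normalization moved the latter to -0.05. Relative to this shift of 0.13, Pde1a stood at -4.28, Pde1b at -2.22 and Pde1c at 1.96. With titled ketamine array 1 or titled ketamine array 2 left out, limma called 0 of the 9 genes, with 7 and 8 at an unadjusted p under 0.05, and 0 of all rows.

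The groups did not overlap for 8 of the 9 genes. For 7 both arrays titled ketamine read lower than both titled saline (21.5% of all rows did so) and for 1, Pde1c, both read higher (48.4% of all rows). Past 1.3-fold were 5 lower (9.87% of all rows) and 1 higher (24.3% of all rows). An exact permutation test (two-sided) cannot go below 0.333 with 2 arrays a group, so that every p below is from limma, which borrows its spread from all rows.

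**Figure D1:**
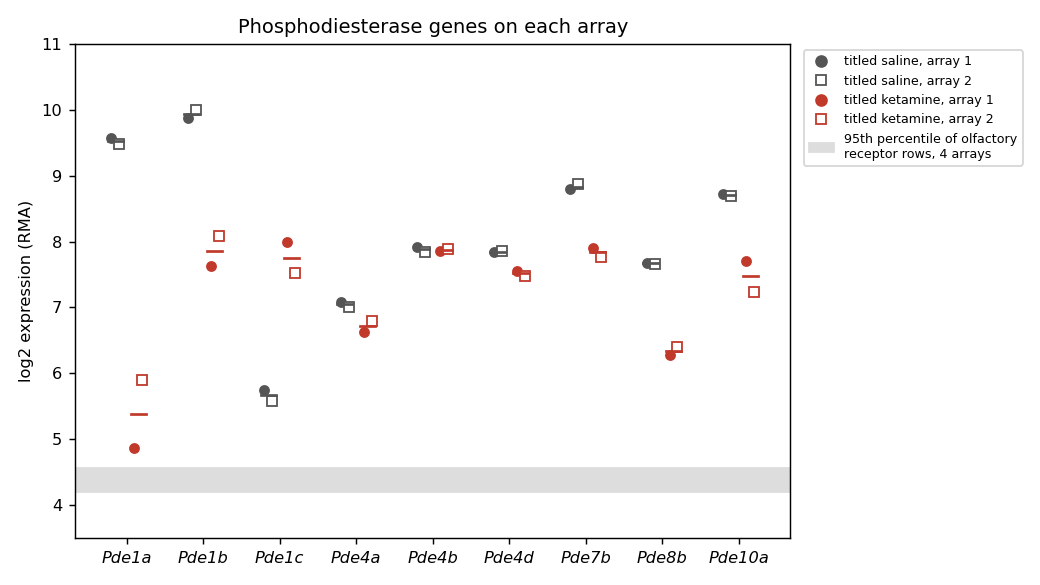
Log2 expression (y axis) of the 9 phosphodiesterase genes (x axis) on each array, grey for titled saline and red for titled ketamine, circles for array 1 and squares for array 2; bars are group means and the grey band spans the 95th percentiles of olfactory receptor rows, 4.20 to 4.56. Pde1a lies at 9.57 and 9.48 against 4.86 and 5.90, Pde1c is higher on both arrays titled ketamine, and the groups overlap for Pde4b.

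Among the calmodulin-activated genes, Pde1a (transcript cluster 10484283) encodes an isoform of cortical and hippocampal pyramidal neurons. It read 9.57 and 9.48 on the arrays titled saline and 4.86 and 5.90 on those titled ketamine, or 9.52 ± 0.0667 (SD, n = 2 arrays) against 5.38 ± 0.731 (SD, n = 2). Both arrays titled ketamine were far below both titled saline, and they differed from each other by 1.03. The value of 4.86 lay little above the olfactory receptor percentile of that array, 4.56, so that the size of the difference is less certain than its direction. By limma the change was -4.15 on the log2 scale (SE 0.294, adjusted p = 0.000122), the 7th lowest of 21789 rows.
Pde1b (10427369) encodes the calmodulin-activated isoform that is abundant in the striatum. It read 9.88 and 10.00 on the arrays titled saline against 7.62 and 8.08 on those titled ketamine, so that the groups were apart by several times the span within either. It changed by -2.09 on the log2 scale (SE 0.163, limma adjusted p = 0.000177), the 125th lowest.
Pde1c (10544941) encodes the isoform with high affinity for both nucleotides, also known from olfactory neurons and smooth muscle. Its 4 values ran the other way, from 5.75 and 5.58 under the title saline to 7.99 and 7.52 under the title ketamine. The change was 2.09 on the log2 scale (SE 0.168, limma adjusted p = 0.000201), the 115th highest.
Array 1 titled ketamine held the lower value of Pde1a and Pde1b and the higher of Pde1c.

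A difference between paralogs within an array is not moved by a constant shift of that array; the values below are as deposited and were not recomputed after quantile normalization. Pde1c minus Pde1a was -3.82 and -3.90 on the arrays titled saline and 3.13 and 1.62 on those titled ketamine. This within-array difference changed by 6.23 on the log2 scale, or 5.48 to 6.99 with any 1 array left out. Pde1c minus Pde1b moved from -4.14 and -4.42 to 0.36 and -0.56. Pde1a minus Pde1b moved from -0.31 and -0.53 to -2.76 and -2.19, so that on both arrays titled ketamine Pde1a was lower by more than Pde1b. The values of different rows also carry the strength of their probes, so that only the change of such a difference between arrays is read.

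In the RefSeq gene order each Pde1 gene lies next to a gene of a protein phosphatase 1 inhibitor, Pde1a beside Ppp1r1c, Pde1b beside Ppp1r1a and Pde1c beside Ppp1r17; the pairs were named after their values had been seen. Ppp1r17, which encodes a substrate of the cGMP-dependent protein kinase in Purkinje cells, read 4.94 and 3.92 on the arrays titled saline and 10.08 and 9.91 under the title ketamine, higher by 5.56 on the log2 scale (limma adjusted p = 4.22e-05). The value of 3.92 lay below the olfactory receptor percentile, so that the size of its difference is not resolved. Ppp1r1a, which encodes an inhibitor that protein kinase A activates, read 7.72 and 7.90 against 6.41 and 6.37, a log2 difference of -1.42. Pde1b and Pde1c thus had the sign of their neighbour. Ppp1r1c read 3.66 and 3.95 against 3.94 and 3.95, below the percentile on all 4 arrays, beside the difference of -4.15 of Pde1a. Limma called 3 higher and 4 lower among the 14 tested neighbours of all 9, and 7 were not called. Over all rows it called 23.4% higher and 9.71% lower.

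**Figure D2:**
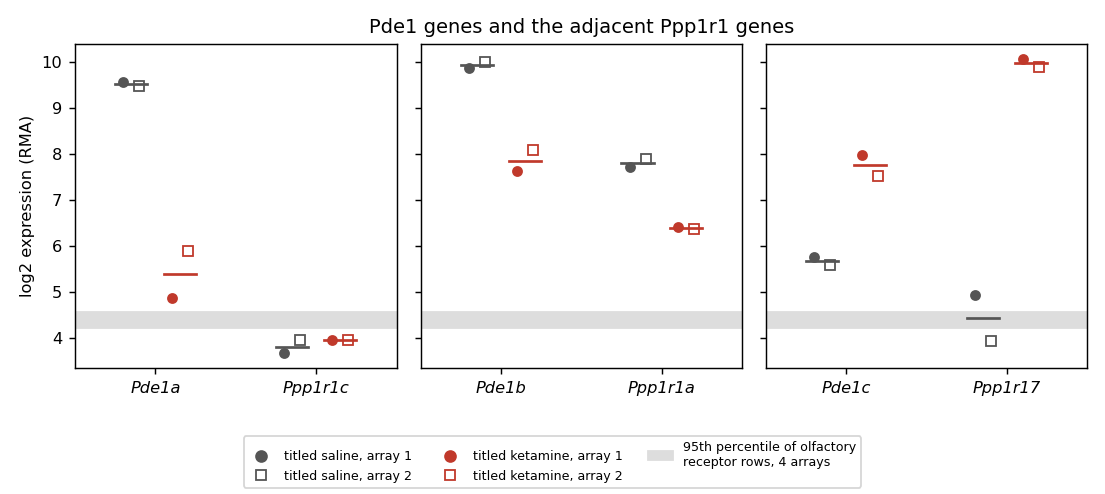
Log2 expression (y axis) of each Pde1 gene and the adjacent Ppp1r1 gene (x axis) on each array, grey for titled saline and red for titled ketamine, circles for array 1 and squares for array 2; bars are group means and the grey band spans the 95th percentiles of olfactory receptor rows. Pde1b and Ppp1r1a are both lower on the arrays titled ketamine, Pde1c and Ppp1r17 both higher, and Ppp1r1c lies below the band on all 4 arrays.

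Pde10a (10441680), the dual-substrate enzyme of striatal projection neurons, read 8.72 and 8.69 on the arrays titled saline and 7.71 and 7.23 on those titled ketamine. The 2 arrays titled ketamine differed by 0.474 and those titled saline by 0.0335, and the groups did not overlap. By limma it differed by -1.23 on the log2 scale (SE 0.163, adjusted p = 0.00169), or -1.47 without titled ketamine array 1 and -0.99 without array 2. It was the array that read higher for Pde1a and Pde1b, array 2, that read lower for Pde10a, so that the spread within the group titled ketamine did not go one way for these genes.
Pde7b (10368175) encodes a cAMP-specific enzyme that is also found in the striatum. It read 8.80 and 8.88 on the arrays titled saline and 7.90 and 7.77 on those titled ketamine, and the groups were apart with little spread in either. The change was -0.999 on the log2 scale (SE 0.111, limma adjusted p = 0.000817).
Pde8b (10411171) encodes a cAMP-specific enzyme of high affinity that the inhibitor IBMX does not block. It read 7.68 and 7.67 against 6.28 and 6.40, the tightest pair titled saline of the 9 genes with a span of 0.0101. This gave -1.33 on the log2 scale (SE 0.108, limma adjusted p = 0.000211). The striatum and cortex markers were lower on the same arrays as these 3 genes, as given above, and their part in the differences was not tested.

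The rolipram-sensitive genes differed least of the 9. Pde4b (10506335), an enzyme bound by the scaffold protein DISC1, read 7.92 and 7.84 on the arrays titled saline and 7.86 and 7.89 on those titled ketamine. The groups overlapped, and the log2 difference of -0.00475 had a standard error of 0.106 (adjusted p = 0.978 from limma).
Pde4a (10583551) read 7.09 and 7.01 against 6.63 and 6.80, lower on both arrays titled ketamine. Its log2 difference of -0.33 (adjusted p = 0.0611) did not pass limma, but it passed after quantile normalization (-0.50, adjusted p = 0.0130) and when the array medians were set equal (-0.47, adjusted p = 0.0174). Over the alternatives its adjusted p from limma ran from 0.0130 to 0.227.
The leading row of Pde4d (10407097) read 7.83 and 7.86 against 7.55 and 7.48, also lower on both. Its log2 difference of -0.33 passed limma by little (adjusted p = 0.0491; 0.0117 to 0.161 over the alternatives). The other 2 rows of Pde4d did not share this call. One (10407124) read 6.35 and 5.79 against 6.16 and 6.50, with overlapping groups and a log2 difference of 0.26 that did not pass, and the other (10407122) read 2.58 to 3.12, below the olfactory receptor percentile on all 4 arrays.
Within an array, Pde4a minus Pde4b was -0.83 and -0.84 on the arrays titled saline and -1.23 and -1.10 on those titled ketamine. Pde4a minus Pde4d was -0.75 and -0.85 against -0.92 and -0.68, overlapping between the groups.

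**Figure D3:**
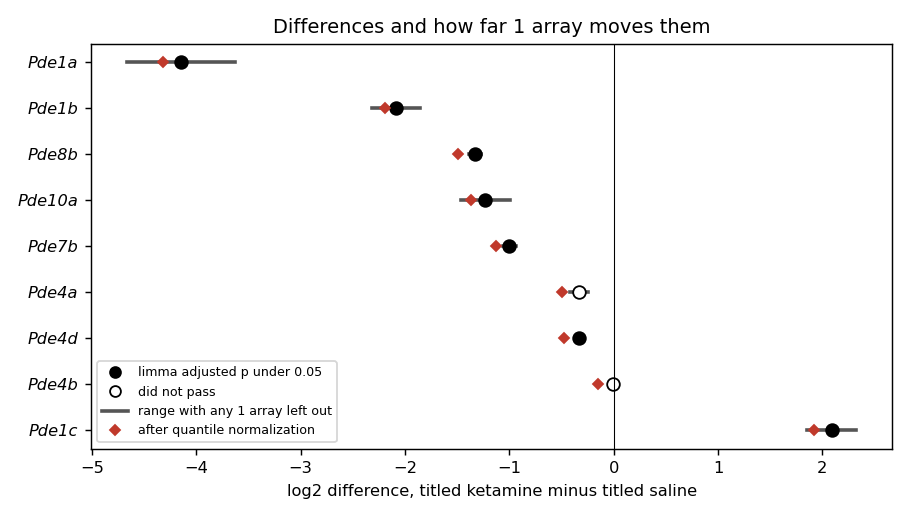
Log2 difference between the arrays titled ketamine and titled saline (x axis) for the 9 phosphodiesterase genes (y axis). Circles are filled where the adjusted p from limma was under 0.05, grey lines span the values with any 1 array left out and red diamonds are the values after quantile normalization. Pde1a ranged from -4.66 to -3.63 and Pde1c from 1.85 to 2.32 with 1 array left out. No gene past 1.3-fold crossed 0, which leaving out 1 array could not bring about, since the groups did not overlap for these genes.

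Within the group titled ketamine Pde1a, Pde1b, Pde1c and Pde10a spread by 0.460 to 1.03 between the 2 arrays and the 5 cAMP-specific genes among the 9 by 0.0317 to 0.168. Over all rows the median span was 0.112. On the arrays titled saline the spans of the 9 genes were 0.0101 to 0.169, beside a median of 0.135 over all rows. Other phosphodiesterase genes whose enzymes take both nucleotides did not share the larger spread on the arrays titled ketamine, with spans of 0.0162 for Pde2a, 0.0102 for Pde3a, 0.180 for Pde3b and 0.191 for Pde11a. Among cAMP-specific genes outside the 9, spans on the arrays titled ketamine were 0.704 for Pde8a, 0.221 for Pde7a and 0.039 for Pde4c. A large spread was thus not particular to either kind of gene. The spread was not tested.

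Of the 15 other measured genes of the phosphodiesterase superfamily, 7 were higher, 2 lower and 6 did not pass, with a median difference of 0.27. Over all rows, too, more were higher (23.4%) than lower (9.71%). After quantile normalization 5 of the 15 were higher, 3 lower and 7 not called, with a median of 0.05. The lower gene gained was Pde6a, whose deposited values lay below the olfactory receptor percentile on all 4 arrays. Pde5a, the cGMP-specific enzyme blocked by sildenafil and known from Purkinje cells, read 6.03 and 5.97 on the arrays titled saline and 8.60 and 8.34 under the title ketamine, higher by 2.47 on the log2 scale (limma adjusted p = 3.99e-05). The cGMP-inhibited genes Pde3b and Pde3a were higher by 1.45 and 0.89, and the cGMP-specific Pde9a by 1.31. Pde6g, an inhibitory subunit of the photoreceptor enzyme, was higher by 0.77 from a value at the olfactory receptor level on titled saline array 2. Pde4c and Pde7a were higher by 0.44 and 0.43, but neither passed after quantile normalization or centring on the median.
The 2 that were lower were Pde2a, the cGMP-stimulated enzyme of forebrain neurons, which read 9.94 and 10.02 against 7.61 and 7.59 (-2.38 on the log2 scale, limma adjusted p = 2.71e-05), and Pde11a at -1.01. Of the 6 that did not pass, the photoreceptor genes Pde6a, Pde6b, Pde6c and Pde6h were below the olfactory receptor percentile on all 4 arrays. Beside Pde8b, which was lower, Pde8a had a log2 difference of 0.03 with overlapping groups and did not pass.

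**Figure D4:**
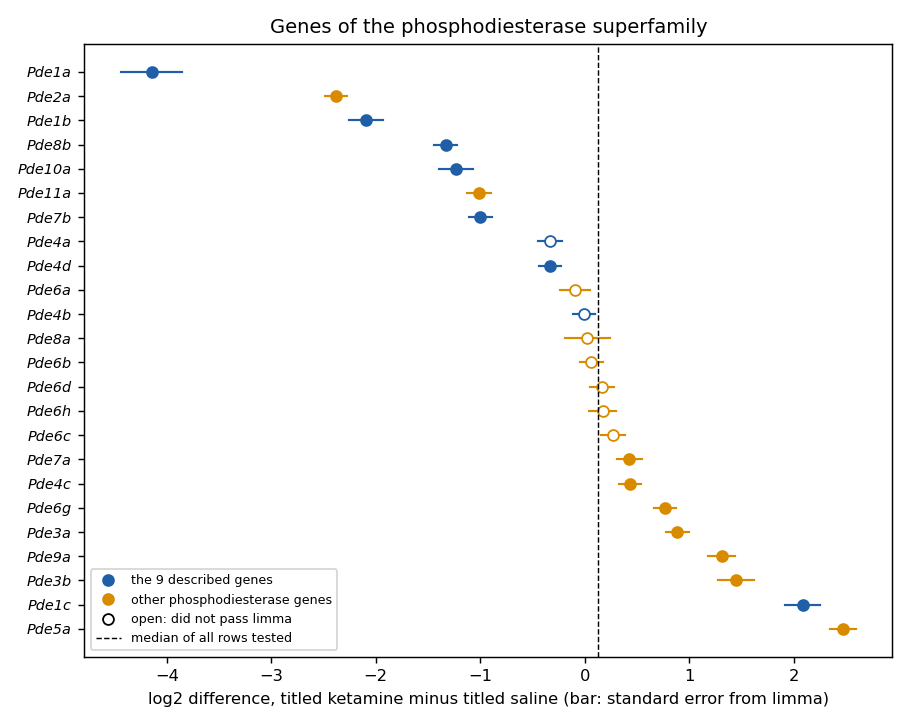
Log2 difference between the arrays titled ketamine and titled saline (x axis) with its standard error from limma, for 24 phosphodiesterase genes (y axis), blue for the 9 described genes and orange for the other 15. Filled circles passed an adjusted p of 0.05, and the dashed line is the median of all rows, 0.13. Pde1a, at -4.15, lies lowest and Pde5a, at 2.47, highest, next to Pde1c.

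Upstream of these enzymes, cAMP is made by adenylyl cyclases under the stimulatory G proteins. The counts in the lists below stand beside shares over all rows of 9.71% lower and 23.4% higher. They were not tested against these shares. Of all calls, 29.3% were lower with the values as deposited and 58.1% after quantile normalization. Of 10 measured genes of cAMP synthesis, 5 were lower, 2 higher and 3 did not pass; after quantile normalization 7 were lower, 1 higher and 2 not called, with Adcy6 and Adcy7 gained. The lower ones were the striatal cyclase gene Adcy5 at -1.73, Adcy2 at -1.21, Adcy3 at -0.65, Adcy9 at -0.38 and Gnal, which encodes the olfactory and striatal G protein, at -0.84. Adcy1 and Adcy8 were higher by 1.27 and 0.34, the latter not after quantile normalization or centring.
Downstream, protein kinase A is held by its regulatory subunits until cAMP binds them. Of 8 measured genes of its subunits and inhibitors, 4 were lower, 1 higher and 3 did not pass. The shares over all rows were 9.71% lower and 23.4% higher. The regulatory subunit genes Prkar2b and Prkar1b were at -1.91 and -0.59, the catalytic Prkacb at -0.36 and the kinase inhibitor gene Pkig at -0.48, while another inhibitor gene, Pkib, was higher by 1.83.
Anchors and scaffolds hold the kinase near its targets. Among 13 such genes 4 were higher, 2 lower and 7 not called, beside 23.4% higher and 9.71% lower over all rows. After quantile normalization 4 were higher, 4 lower and 5 not called, while the median of 0.03 turned to -0.13. Akap5, which encodes the anchor of protein kinase A at the postsynaptic density, was at -2.45 and Akap6 at -0.37, while Akap12, Akap7, Akap8 and Akap1 were higher by 1.39, 0.82, 0.59 and 0.53. Of 7 measured genes of other effectors, 3 were higher and 4 did not pass: the CREB coactivator gene Crtc2 by 1.12, Atf1 by 0.72 and Creb1 by 0.46, the last not after quantile normalization or centring. The calmodulin genes Calm2 and Calm3, whose protein activates the Pde1 enzymes, had log2 differences of -0.00055 and -0.05 and neither passed, with 0 of the 2 at an unadjusted p under 0.05.
With titled ketamine array 1 or array 2 left out, limma called 0 of the genes in these lists and of the other phosphodiesterases, of which it called 30 with all arrays. With all arrays, limma called 33.2% of all rows, the share to set beside these 30. The markers of cortex and striatum were lower, and those of cerebellum higher, on the same arrays as these genes changed. The part of these markers in the differences was not tested.

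**Figure D5:**
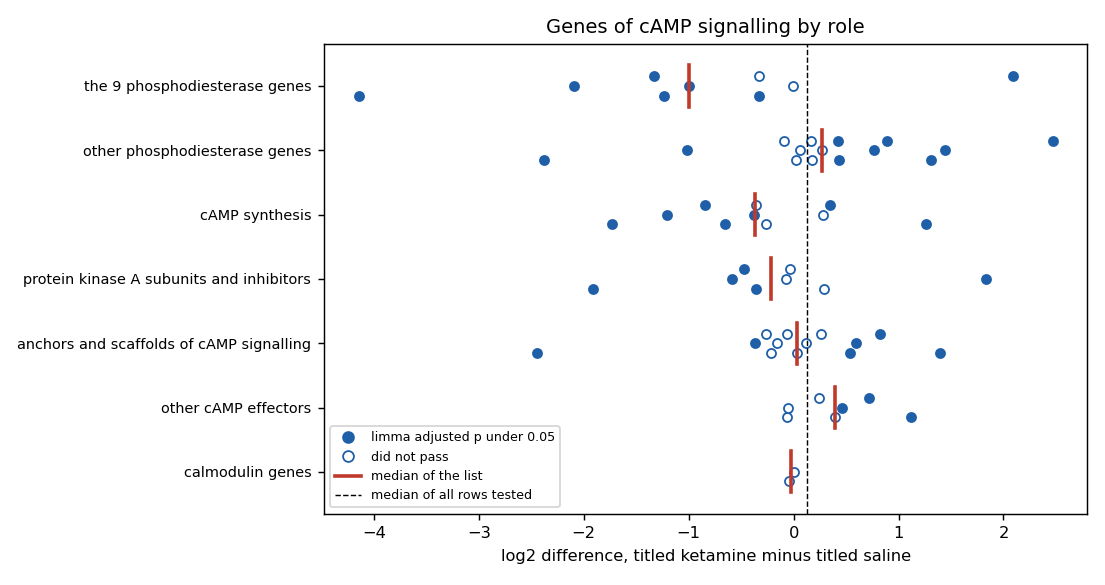
Log2 difference between the arrays titled ketamine and titled saline (x axis) for genes of cAMP signalling grouped by role (y axis). Points are genes, filled where the adjusted p from limma was under 0.05, red bars are the medians of the lists and the dashed line is the median of all rows, 0.13. The median of the 9 phosphodiesterase genes, at -0.999, is the lowest of the 7 lists. The 9 genes and the lists were chosen with earlier results of these data known, so that this rank is not a test. Each list but that of calmodulin and that of other effectors holds called genes on both sides.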

How the data were processed

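Per the labels and methods, the authors ran RMA at core level in Expression Console and deposited its log2 values (version and genome build not given in the sources used here), 1 column per array; 0 other columns of sample values were present. RMA corrects background, scales the arrays to a common distribution and gives 1 value per transcript cluster, so that low values are compressed and a shift of most genes is partly removed. Detection calls and scanner files were not used here, and the number of arrays limits the precision.

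Rows with exactly 1 symbol in the platform annotation entered lmFit and eBayes of limma 3.58.1 (R 4.3.3), and p-values were adjusted by Benjamini-Hochberg over all 21789 rows; no filter on dim rows was used. All 9 symbols equalled those of RefSeq (GRCm38.p6) by gene number, and promoter sequences are from RefSeq. A gene with several rows is represented by that with the highest mean. The fit was tested on simulated data. The 9 genes, the lists of pathway and marker genes and the olfactory receptor level were chosen with earlier results of these data known. Named were all 9 genes, the called genes and the 3 with the largest differences of each pathway list, and the 3 genes nearest in pattern to the lowest and the highest of the 9. Some genes of the pathway and marker lists were not analysed here. Alternatives covered the scaling between arrays, the rows tested, the moderation, a block for the replicate number, the fold and each array left out. The other marker lists gave, as higher, lower and not passed, 2, 1 and 3 of 6 for astrocytes, 0, 0 and 5 of 5 for oligodendrocytes, 0, 8 and 1 of 9 for microglia and 5, 0 and 1 of 6 for choroid plexus.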

Additional observations from a re-analysis of the deposited data

How the results depend on the processing

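The directions of Pde1a, Pde1b, Pde1c, Pde7b, Pde8b, Pde10a, Pde4a and the leading row of Pde4d were the same under all 11 alternatives. Only the changes of the scaling between arrays could have turned them. The rows tested, the moderation and the replicate block leave a difference as it is. Leaving out 1 array cannot turn the sign where the groups do not overlap, as for these rows. With 1 array left out, limma called 0 to 6 of the 9 genes, 0 to 5 lower and 0 to 1 higher, and 0 to 23 genes of the pathway lists; the 0 came without titled ketamine array 1 or array 2, where the lone array takes its spread from the other group. Without moderation 2 residual degrees of freedom are left. Of the 9 genes 0 were then called, 0 lower and 0 higher, with 7 at an unadjusted p under 0.05. Of all 21789 rows 81 were called, so that the 0 is not particular to these genes. Pde4b turned sign with an array left out (-0.045 to 0.0355), and so did the second row of Pde4d (-0.0212 to 0.541). Of all calls, 29.3% were lower with the values as deposited, 58.1% after quantile normalization and 50% with array medians set equal; the 9 genes were then 7 lower and 1 higher under both. The replicate number was also fitted as a replicate block. With it 6 of the 9 genes were called, beside 8250 of 21789 rows, and the call on Pde4d was lost (limma adjusted p = 0.0523). The differences between arrays 1 and 2 of the groups correlated at 0.03 across rows. Whether the replicate numbers mark anything shared between the groups was not tested. Past 2-fold were 5 of the 9 genes, and past 1.3-fold 6 (6 to 7 with an array left out). The ranges of the within-array differences with an array left out were added after the data were seen.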

Other observations

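By their values on the 4 arrays, each centred on the mean of the arrays titled saline, the genes nearest to Pde1a were Camkv, Dbpht2 and Mal2, at Euclidean distances of 0.428, 0.583 and 0.672 on the log2 scale. Camkv, which encodes a calmodulin-binding kinase-like protein of neurons, read 10.62 and 10.64 on the arrays titled saline and 6.12 and 6.61 on those titled ketamine, the latter higher on array 2 as for Pde1a. Dbpht2 read 3.96 on titled ketamine array 1, below the olfactory receptor percentile, so that the size of its difference is not resolved.

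The genes nearest to Pde1c were Ndst3, a heparan sulfate enzyme gene, Slc9a3, a sodium-proton exchanger gene, and Ptprr, a tyrosine phosphatase gene, at distances of 0.0863, 0.127 and 0.145. Ndst3 read 6.82 and 6.67 on the arrays titled saline and 9.11 and 8.68 on those titled ketamine, and Ptprr 6.67 and 6.65 against 9.002 and 8.610. Slc9a3 lay below the olfactory receptor percentile on both arrays titled saline, at 4.16 and 4.03. Over 4 arrays in 2 groups, such a distance mostly measures the difference between the groups.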
